A study of Mus musculus with 28 samples.

Results

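The integrated stress response and the targets of its transcription factor ATF4 were followed through 7 groups of mIMCD-3 cells. mIMCD-3 cells are epithelial and derive from the collecting duct in the inner medulla of an SV-40 transgenic mouse. The 36 genes were chosen by symbol, as a module of known function, once their TPM in monoclonal and polyclonal cells was known, and each symbol matched 1 of the 45706 Ensembl identifiers in the expression tables. That difference is therefore a description, and the calls counted on it only sort the members by size and spread. RNA sequencing covered 28 libraries, 4 from each group. Polyclonal wild-type cells are the parental population. Monoclonal wild-type cells, called WT5 in the study, were expanded from 1 sorted cell. Subclones 1, 2, 3, 4 and 5 were each expanded from 1 cell sorted from WT5, so each of these 6 lines is 1 clone. The labels name no gene edit and no drug for any group, and RNA was isolated from confluent cultures. Polyclonal cells were sequenced as single-end and WT5 as paired-end reads at different times, so line and sequencing run cannot be told apart. The subclones stand in another table than WT5, and a difference that the subclones share against WT5 cannot be told apart from the table.

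In the integrated stress response, kinases that sense a lack of amino acids, a lack of heme, unfolded protein or viral RNA phosphorylate the translation factor eIF2. General protein synthesis then falls while the mRNA of ATF4 is translated more, and ATF4, often paired with a C/EBP protein, activates genes for amino acid synthesis and transport, tRNA charging and redox balance. The response also induces its own brakes, among them the phosphatase subunit GADD34, and the secreted hormones GDF15 and FGF21. Much of it is set by translation and phosphorylation, which RNA levels do not show.

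The C/EBP-ATF response element, TGATGNAA, was searched on both strands of promoter windows from 250 bases before to 50 after each RefSeq start (GRCm38.p6). A window was at hand for 31 members, of which Mars was matched under the name Mars1, and not for Aldh1l2, Cth, Cars, Wars and Nars. The element was found in 9 of these 31 members, beside 4.51% of the 27025 genes with a window. The palindrome TGACGTCA, the cAMP response element, was found in 1 of 31 members, Ppp1r15a, beside 2.03% of genes. Members were listed as genes of the response and targets of ATF4, so a share above that of all genes can come from that choice. No 8 bases can match both elements, and a match describes the sequence, not binding. The stretches below, read 5′ to 3′ on the strand of the gene, are those of 7 members whose levels differ between groups further on. Capitals mark the match, and each stretch ends before the start of transcription.
Chac1 (chr2:119351009-119351096, plus strand): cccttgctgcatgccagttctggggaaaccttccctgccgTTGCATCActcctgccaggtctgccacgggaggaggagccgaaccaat
Fgf21 (chr7:45615582-45615669, minus strand): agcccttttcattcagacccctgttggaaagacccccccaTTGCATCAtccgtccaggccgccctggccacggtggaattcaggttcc
Atf3 (chr1:191183396-191183483, minus strand): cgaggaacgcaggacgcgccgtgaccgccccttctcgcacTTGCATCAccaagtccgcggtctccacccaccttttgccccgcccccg
Nupr1 (chr7:126625533-126625620, minus strand): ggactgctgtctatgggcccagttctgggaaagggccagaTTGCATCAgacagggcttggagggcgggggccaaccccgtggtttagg
Pycr1 (chr11:120643804-120643891, minus strand): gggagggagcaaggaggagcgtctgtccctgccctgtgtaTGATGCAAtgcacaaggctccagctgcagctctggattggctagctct
Asns (chr6:7693210-7693272, minus strand): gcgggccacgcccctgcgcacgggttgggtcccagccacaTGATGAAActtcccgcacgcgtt
Gars (chr6:55037931-55038000, plus strand): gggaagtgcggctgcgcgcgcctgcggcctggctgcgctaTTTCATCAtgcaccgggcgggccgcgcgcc
The matched bases were identical, TTGCATCA, in Chac1, Fgf21, Atf3 and Nupr1, where the element lies on the opposite strand. Aars held the same 8 bases 112 bases before its start, and Trib3 held a match just after its start. The window of Stc2 and the windows of Gdf15 held no match to these letters.

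Facts of the libraries bear on every value below. Levels are in TPM, a unit scaled to transcript length and to a fixed total per library, so members can be compared with each other within a library. TPM keeps no read depth, so no counting error can be given, and the precision stated is the spread between the 4 libraries of a group. The study calls these libraries biological replicates in one place and technical replicates in another, so p-values measure the spread between libraries only. Genes above 0 numbered between 18681 and 19272 in polyclonal, between 16318 and 16536 in WT5 and between 16270 and 17004 in subclone libraries. Of 13 kidney epithelium markers, the water channel gene Aqp2 was at 0 in all 28 libraries, and Gata3 had a mean of 4.08 TPM in polyclonal cells, 0.04 in WT5 and at most 0.16 in a subclone. The epithelial keratin Krt8 had a mean of at least 360 TPM in every group. The summed markers of other cells lay between 4.6 and 25.7 TPM, with the highest sums, 18.8 to 25.7, in subclone 5. Of these 12 markers 3 or 4 were at 0 in each group. The highest means in subclone 5 were those of Umod, 11.6 TPM, and Lrp2, 8.19 TPM, markers of other kidney tubule segments. The part of these markers in the results was not tested. In bulk RNA, a change in the share of cells and a change in RNA per cell cannot be told apart.

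Most members were higher in WT5 than in polyclonal cells. Together they took between 2534 and 2816 TPM in polyclonal libraries and between 5194 and 5280 in WT5, and between 3864 and 4688 in the subclones. Of 36 members, 33 had a log2 difference above 0 and 3 below. Their median was 0.85, beside 0.24 over the 13723 genes detected in each of the 8 libraries, of which 63.4% were above 0. In 32 members all 4 WT5 libraries lay above all polyclonal ones, as did 48.5% of genes tested, and in 3 all lay below, as did 23.8%. By the 2-fold rule, a limma adjusted p below 0.01 and a log2 difference above 1 in size, 16 members were higher, beside 17% of genes, and 2 were lower, beside 8.55%. With every library centred on its median, which takes the median of all genes from 0.24 to -0.046, the rule gave 13 higher and 3 lower members. That centring takes the share of higher among all called genes from 66.5% to 48.5%. By the rule of the study, an adjusted p below 0.01 and a difference of z-scored log2(TPM) above 1, 3 members were higher, beside 2.31% of genes, and 1 was lower, beside 3.12%. These counts, and those given by role below, are not read as a result, since the contrast was known when members were listed. The members nearest to the 2-fold limit were Phgdh at 1.04 inside it and Ddit4 at 0.91 outside.

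**Figure D1:**
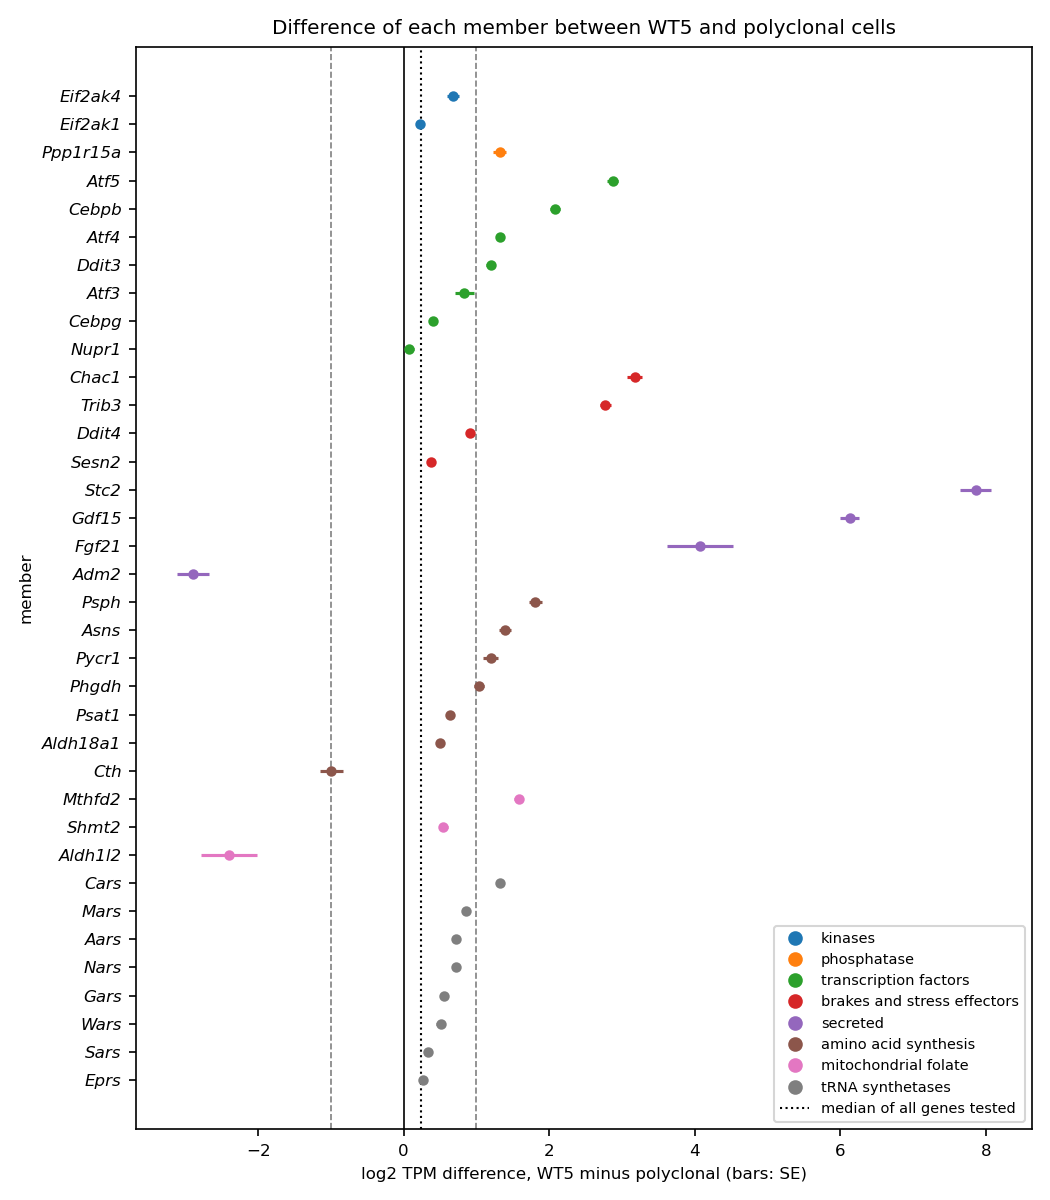
Log2 difference in TPM of each of the 36 members between WT5 and polyclonal cells (points, with SE, 4 libraries each), coloured and ordered by role. Dashed lines mark a log2 difference of 1 in either direction and the dotted line the median of all genes, 0.24. Stc2, Gdf15 and Fgf21 lie farthest to the right, and Adm2, Aldh1l2 and Cth lie left of 0.

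Of the 2 kinases that start the response, 0 passed the 2-fold rule. Eif2ak1 encodes HRI, the kinase that senses heme shortage and relays mitochondrial stress. It was at 25.9, 25.7, 27.7 and 24.6 TPM in the polyclonal and 29.3, 29.9, 30.95 and 30.9 TPM in the WT5 libraries, a log2 difference of 0.22 that turned to -0.069 when libraries were centred on their median. Its 20 subclone libraries ranged from 22.05 to 31.55 TPM, with a median of 28.8. The subclones thus spanned the levels of both parents, and exons of this gene overlap Ankrd61 and Aimp2 on the other strand. Eif2ak4 encodes GCN2, which senses uncharged tRNA. It was at 4.73, 4.33, 5.41 and 4.5 TPM in polyclonal and 7.5, 7.28, 8.28 and 7.26 TPM in WT5 libraries, a log2 difference of 0.68, without overlap, and subclone libraries ranged from 5.43 to 8.76 TPM, with a median of 7.59. Of 13 further genes of eIF2, its exchange factor, kinases and phosphatases, 2 passed the 2-fold rule, both higher in WT5. These were Eif2b2, a subunit of the exchange factor, by 1.45 ± 0.08 (SE), and Dele1, which carries mitochondrial stress to HRI, by 1.03 ± 0.06.

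Atf4, the central transcription factor, was at 200.1, 203, 213 and 214 TPM in the polyclonal libraries. In the WT5 libraries it was at 517, 527, 519 and 505 TPM, which is 2.49-fold higher, a log2 difference of 1.32 ± 0.04 (SE, n = 4 and 4). WT5 and polyclonal libraries were far apart, and the 20 subclone libraries lay between them, from 394.5 to 493 TPM, with a median of 429.9. Of the 7 transcription factors, 4 were higher in WT5 by the 2-fold rule and 3 passed in neither direction. Atf5, which shares the translational control of ATF4, was at 21.9, 24.5, 26.7 and 23.65 TPM in polyclonal libraries. It was at 168.5, 190.4, 186 and 163 TPM in WT5, a log2 difference of 2.87. The subclones ranged from 87.45 to 149.5 TPM, with a median of 117.5. Subclone and WT5 libraries of Atf5 did not overlap, and exons of the gene overlap Nup62 and Il4i1 on the other strand. Cebpb, a partner of ATF4, was 4.22-fold and Ddit3, which encodes CHOP, 2.29-fold higher in WT5. On the other strand, Cebpb shares 312 of 1504 exon bases with Tmem189, and exons of Ddit3 overlap Gm4189 and Mars.

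Nupr1, a small stress-induced chromatin protein, overlapped between the parents. It was at 304, 313, 321 and 269.9 TPM in polyclonal and 292, 334.5, 319 and 318 TPM in WT5 libraries, which overlap, with a log2 difference of 0.067 that turned to -0.22 with centred libraries. Atf3, an immediate stress factor, was at 28.2, 33.5, 36.9 and 44.4 TPM in polyclonal and 62.1, 68.8, 61.5 and 59.6 TPM in WT5 libraries, a log2 difference of 0.84. The polyclonal libraries of Atf3 spread widely, and none reached WT5. Ppp1r15a, the gene of GADD34 that helps to dephosphorylate eIF2, was 2.5-fold higher in WT5.

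Of the 4 brakes and stress effectors, 2 were higher in WT5 by the 2-fold rule. Trib3 encodes a pseudokinase that binds ATF4 and restrains it. It was at 8.41, 9.8, 9.91 and 8.13 TPM in polyclonal and 62.5, 58.75, 62.7 and 62.2 TPM in WT5 libraries, 6.81-fold higher, and its subclone libraries ranged from 36.9 to 57.0 TPM, with a median of 44.8. Chac1, which degrades glutathione, was at 8.98, 8.67, 8.48 and 6.49 TPM in polyclonal and 71.0, 72.6, 74.8 and 73.5 TPM in WT5 libraries, 9.02-fold higher. For both genes all subclone libraries lay between the parents, and those of Chac1 ranged from 35.5 to 56.2 TPM, with a median of 43.4. Ddit4, an inhibitor of mTORC1, was at 51.7, 58.0, 60.6 and 57.1 TPM in polyclonal and 109, 104, 104 and 109.5 TPM in WT5 libraries. WT5 was higher without overlap, by 1.88-fold, and the subclones ranged from 39.9 to 73.6 TPM, with a median of 53.2.

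The 4 secreted members held both ends of the range. Stc2, a secreted glycoprotein named stanniocalcin-2, was at 0.24, 0.51, 0.33 and 0.28 TPM in polyclonal libraries and at 72.6, 73.55, 77.9 and 79.5 TPM in WT5, 233-fold higher, and its subclone libraries ranged from 41.9 to 82.2 TPM, with a median of 66.8. Gdf15, a hormone of cell stress that lowers food intake, was at 3.59, 4.69, 5.62 and 5.21 TPM in polyclonal and 328, 339, 331 and 320.2 TPM in WT5 libraries, 69.9-fold higher. Both genes were low in every polyclonal library and at least 72.6 TPM in every WT5 library. The fold of Stc2 rests on polyclonal levels of at most 0.51 TPM, with no pseudocount, so its size is imprecise. Fgf21, a hormone of nutrient stress, was at 0.11, 0.23, 0.48 and 0.44 TPM in polyclonal and 4.91, 3.97, 4.21 and 5.19 TPM in WT5 libraries, 16.8-fold higher with a wide SE of 0.45 on the log2 scale. Adm2, which encodes the vasoactive peptide intermedin, went the other way. It was at 2.34, 1.89, 2.81 and 2.75 TPM in polyclonal and 0.34, 0.22, 0.34 and 0.44 TPM in WT5 libraries, 7.43-fold lower in WT5. It was listed at 0 in all 4 libraries of subclone 1 and at most at 0.28 TPM in any subclone library, and was not tested there.

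Of the 7 genes of amino acid synthesis, 4 were higher in WT5 by the 2-fold rule. In the serine pathway these were Psph, at 21.3, 25.4, 26.8 and 25.9 TPM in polyclonal and 80.98, 96.0, 81.7 and 88.7 TPM in WT5 libraries, and Phgdh, 2.06-fold higher. Psph shares exon bases with Cct6a on the other strand, and 63.1% of the 50-base stretches of the Phgdh transcript also occur in other genes, mostly pseudogenes, so the split of its reads is uncertain. Asns, which makes asparagine, was 2.62-fold and Pycr1, the last step to proline, 2.29-fold higher. Cth, which makes cysteine from cystathionine, was the exception. It was at 5.43, 4.26, 5.7 and 5.15 TPM in polyclonal and 3.26, 2.18, 2.79 and 2.19 TPM in WT5 libraries, lower in WT5 without overlap, with a log2 difference of -0.99 just short of the limit.

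Among the mitochondrial folate enzymes, Mthfd2 was at 40.2, 40.9, 43.9 and 36.7 TPM in polyclonal and 115, 124, 121 and 122.5 TPM in WT5 libraries, 2.99-fold higher, and Shmt2 was 1.46-fold higher. Aldh1l2, which oxidises formyl-folate in mitochondria, was at 0.07, 0.12, 0.07 and 0.08 TPM in polyclonal and 0.01, 0.02, 0.01 and 0.03 TPM in WT5 libraries. Its levels were close to the lowest value the tables hold, 0.01, and its exons overlap D10Wsu102e, so little rests on its log2 difference of -2.40. Subclone libraries ranged from 0 to 0.13 TPM, with a median of 0.02. Of 8 aminoacyl-tRNA synthetases, which charge tRNAs, 1 passed the 2-fold rule, Cars for cysteine, 2.5-fold higher. The other 7 had log2 differences from 0.27, for Eprs, to 0.86, for Mars. Eprs was at 79.1, 75.4, 80.7 and 75.5 TPM in polyclonal and 91.85, 94.1, 98.2 and 89.5 TPM in WT5 libraries, which did not overlap, and with centred libraries its log2 difference turned to -0.024. Its subclone libraries ranged from 68.6 to 104 TPM, with a median of 84.3. For Aars, 22.4% of 50-base stretches also occur in Exosc6.

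Genes of the same pathways outside the members were counted by the 2-fold rule from further lists. Of 19 other ATF4 targets, 9 were higher in WT5 and 0 lower, with a median log2 difference of 0.69. The largest differences among them were those of Slc6a9, a glycine transporter, at 2.18, Vegfa, an angiogenic factor, at 2.11, Slc7a11, the cystine transporter, at 1.78, and Eif4ebp1, a brake on cap-dependent translation, at 1.67. Of 15 other cytosolic synthetases and scaffold genes 0 passed, with a median of 0.07. Of 17 mitochondrial synthetases Aars2 was higher, by 1.12, and Nars2 lower, at -1.16. Of 14 ER chaperones and other XBP1 or ATF6 targets 0 passed, and their median was -0.32. All these values are on the same contrast, and background shares are those given above, 17% and 8.55%. The lists, like the members, were chosen with earlier results of these data known. Counts from them, here, above and further on, are therefore a description and are not read as a result.

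**Figure D2:**
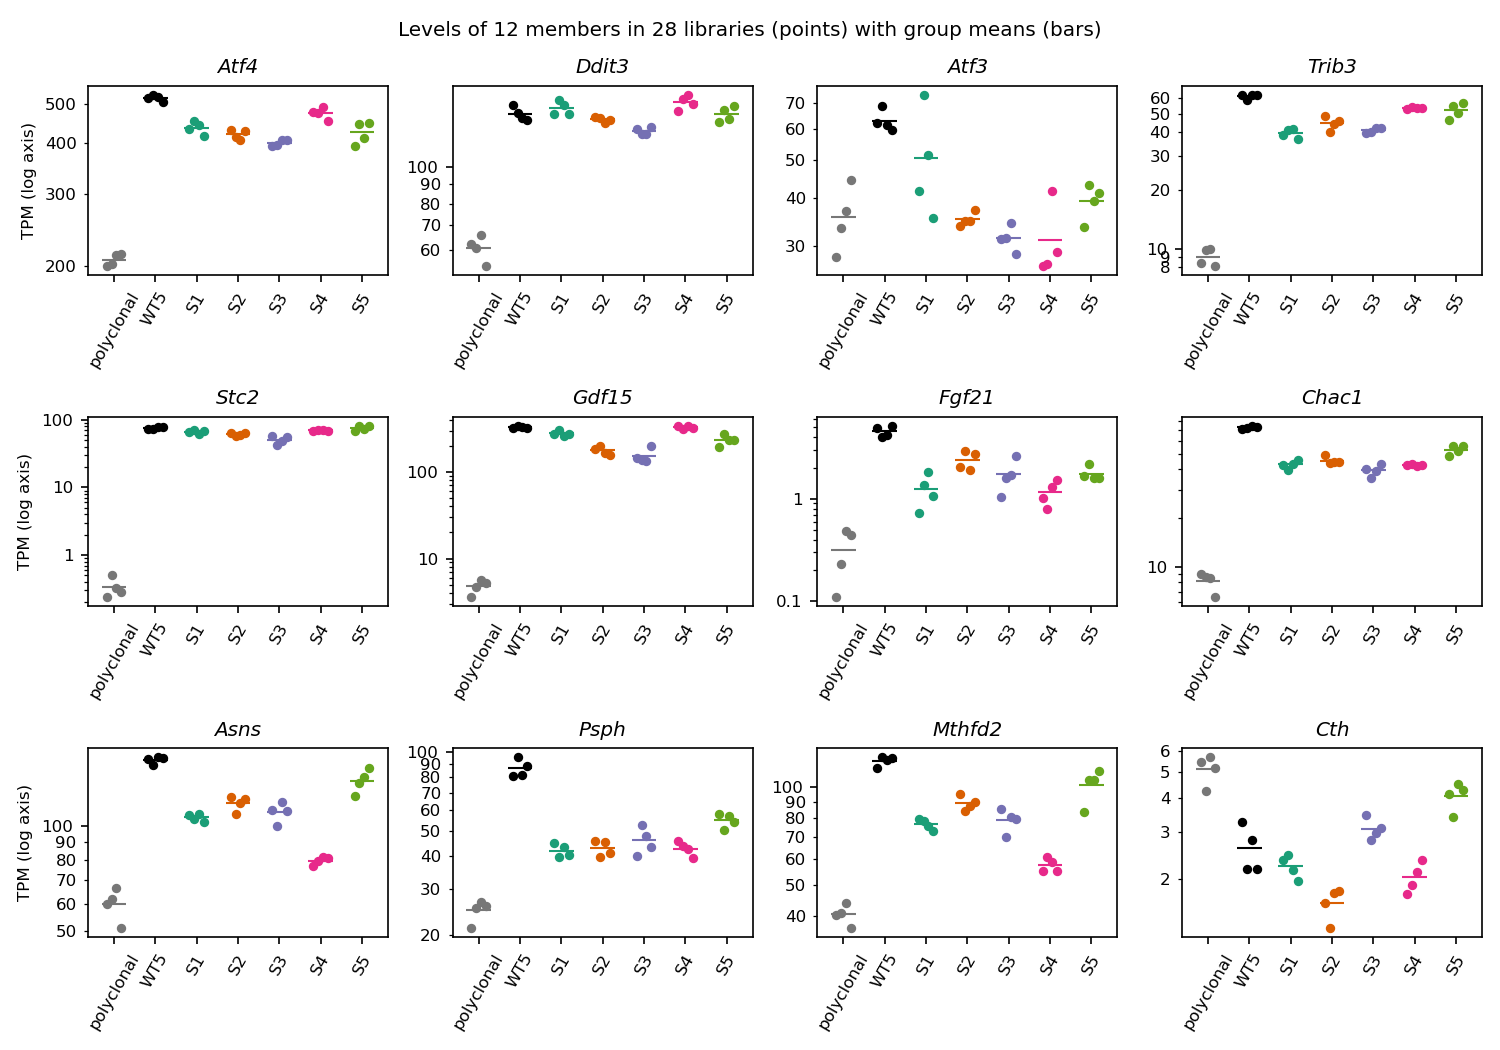
TPM of 12 members (log axes) in the 28 libraries, as points, with bars at the mean of each group, where S1 to S5 are the subclones. In Stc2 and Gdf15 the polyclonal libraries lie far below all others, while Asns and Mthfd2 show the lowest mean of the subclones in subclone 4 and the highest in subclone 5.

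Whether the subclones kept the levels of WT5 was asked next. Tests used 13860 genes, those detected in each of 24 libraries, and 34 members were among them. Adm2 and Aldh1l2 were not, because of zeros. All 5 comparisons share the WT5 libraries with each other and with the contrast known when members were listed. Most members were higher there than in polyclonal cells, so the choice of members can itself favour lower values in the subclones. Counts and p-values of members against WT5 are therefore a description. Against WT5, most members were a little lower. The median log2 difference of the members in subclones 1 to 5 was -0.31, -0.31, -0.38, -0.27 and -0.22. Over all genes the medians were -0.037, -0.051, -0.082, -0.063 and -0.098. Members below 0 numbered 30, 33, 33, 30 and 31 of 34, beside 55.3%, 57.2%, 60.4%, 57.5% and 62.7% of genes.

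By the rule of the study, 0 members were called in any subclone by limma or by an unequal-variance test, and 0 had an unadjusted p below 0.05 with such a difference, beside 0.152%, 0.144%, 0.173%, 0.202% and 0.173% of genes called. A z-score difference of 1 is close to 2.99 on the log2 scale, the mean SD of log2(TPM) in these libraries. No member differed from WT5 by that much, so these counts of 0 follow from the limit and show no lack of change. By the 2-fold rule, 2, 2, 3, 4 and 2 members were lower in subclones 1 to 5, beside 1.75%, 1.58%, 1.9%, 2.27% and 1.98% of genes. In the same order 0 were higher by limma, and 0 at an unadjusted p below 0.05, beside 1.42%, 1.11%, 1.71%, 2.87% and 1.46% of genes. With an adjusted p below 0.01 alone, a rule added after the data were seen, 19, 19, 19, 18 and 10 members were lower, beside 16.4%, 13.8%, 11.8%, 23.6% and 11.6% of genes. The same rule found 0, 0, 0, 1 and 0 higher, beside 9.23%, 7.29%, 4.65%, 13.4% and 4.68% of genes. At an unadjusted p below 0.05, 26, 25, 26, 23 and 20 members differed in either direction, beside 51%, 48.8%, 44.9%, 59.7% and 45.4% of genes. Centred libraries gave 18, 23, 16, 16 and 10 lower and again 1 higher, in subclone 4, while the share of higher among all called genes moved from 28.3 to 36.2% up to 45.9 to 53.7%. In subclone 2 the count of 19 fell to 11 or 12 without any 1 WT5 library, or without replicate 3 or 4 of the subclone.

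Fgf21 had the lowest log2 difference of the members against WT5 in every subclone but subclone 2. It was at 0.72, 1.35, 1.81 and 1.07 TPM in subclone 1, at 1.04, 1.61, 1.72 and 2.59 TPM in subclone 3 and at 1.01, 0.79, 1.3 and 1.54 TPM in subclone 4. In subclone 5 it was at 1.66, 2.2, 1.6 and 1.58 TPM and in subclone 2 at 2.04, 2.92, 1.9 and 2.75 TPM. These libraries lay below those of WT5 and above those of polyclonal cells. By the 2-fold rule it was lower in subclone 1, by 3.88-fold (adjusted p = 0.00124), subclone 3, by 2.75-fold (0.0043), subclone 4, by 4.04-fold (0.000186), and subclone 5, by 2.61-fold (0.000446, all limma). The first 2 of these calls were lost with the unequal-variance test (adjusted p of 0.0178 and 0.0437), and that in subclone 3 also without any 1 WT5 library.

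Psph, the last enzyme of serine synthesis, was at 44.75, 39.8, 43.25 and 40.4 TPM in subclone 1, at 45.7, 39.6, 45.35 and 41.2 TPM in subclone 2 and at 45.7, 43.7, 42.45 and 39.3 TPM in subclone 4. No library of these reached WT5, and Psph was lower by 2.06-fold, 2.02-fold and 2.03-fold (limma adjusted p of 6.78e-05, 0.00015 and 3.51e-05). It was at 40.1, 52.8, 47.7 and 43.5 TPM in subclone 3 and at 57.8, 50.4, 56.9 and 54.3 TPM in subclone 5, which passed no fold limit. Without WT5 replicate 2 all of the Psph calls were lost, at log2 differences of -0.99, -0.97 and -0.97, and with centring those in subclones 2 and 4, at -0.96 and -0.93.

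Ddit4 was at 39.9, 44.2, 42.4 and 44.3 TPM in subclone 5 and 49.25, 44.8, 51.0 and 52.1 TPM in subclone 2. These were 2.5-fold and 2.17-fold lower than WT5 (limma adjusted p of 3.3e-05 and 4.42e-05), without overlap. Atf3 was at 31.4, 31.6, 34.45 and 28.6 TPM in subclone 3 and 26.7, 27.05, 41.5 and 29.0 TPM in subclone 4. These levels, 2-fold and 2.06-fold below WT5 (adjusted p of 0.000136 and 0.000705), overlap the polyclonal ones. Both calls lie at the limit and were lost with centring, at -0.90 and -0.95, the first also with either pseudocount and the second with the unequal-variance test (adjusted p of 0.0138). Subclone 1 had the widest spread of Atf3, at 41.7, 73.6, 51.4 and 35.4 TPM, from within the polyclonal range to above WT5. The remaining calls were Gdf15 in subclone 3, 2.16-fold lower (limma adjusted p = 0.000822), and Mthfd2 in subclone 4, 2.1-fold lower (limma adjusted p = 5.73e-06). The Gdf15 call was lost with the unequal-variance test (adjusted p of 0.0264) and the Mthfd2 call with centring, at -0.98. In subclone 3, leaving out any 1 library of either group gave 1 or 2 calls in place of 3. Without WT5 replicate 2 the calls numbered 1 in subclone 1, 1 in subclone 3 and 2 in subclone 4.

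**Figure D3:**
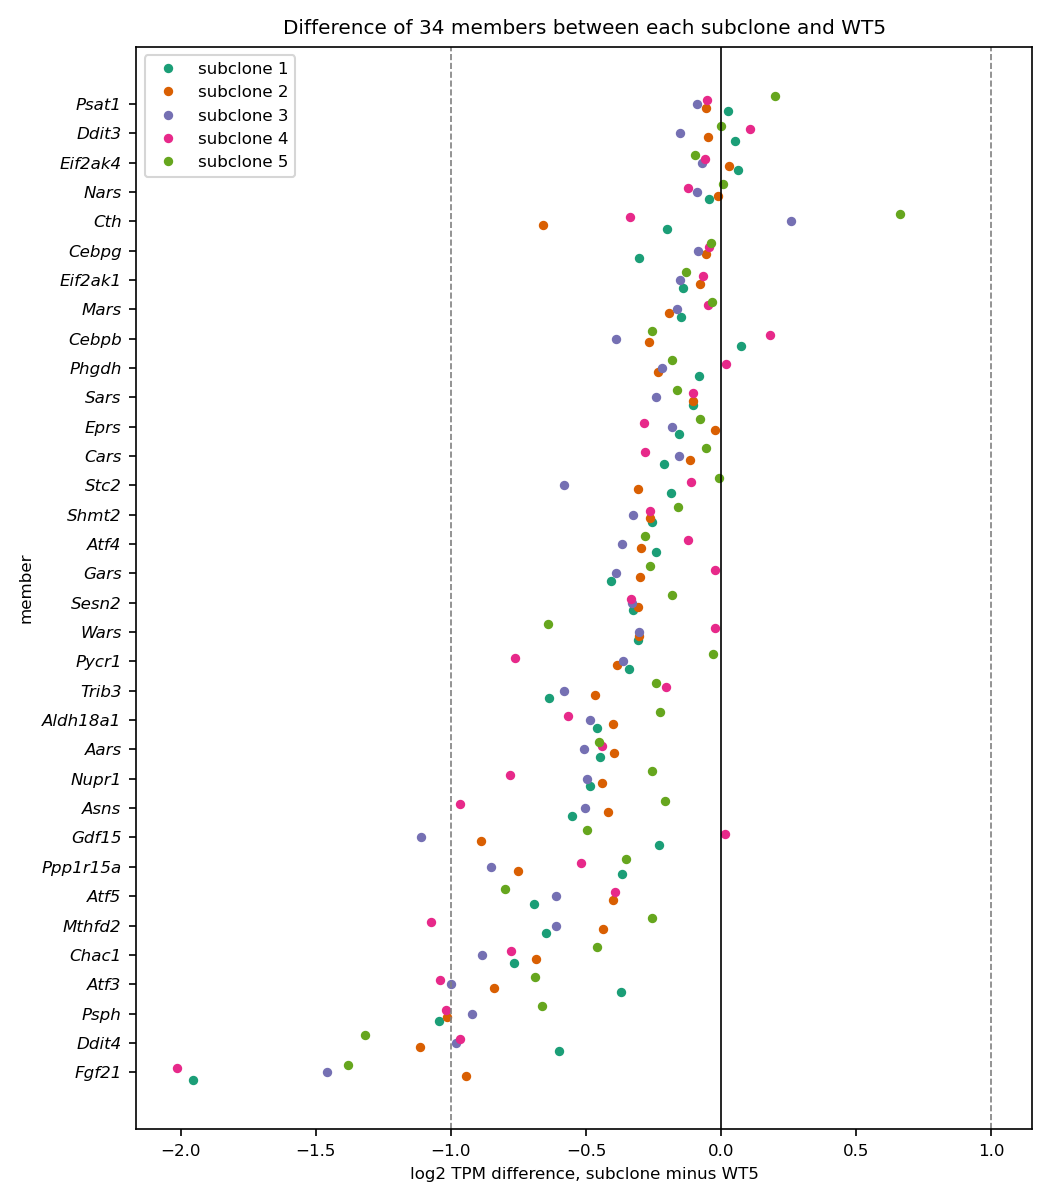
Log2 difference in TPM between each subclone and WT5 for 34 members, ordered by their mean over the subclones, with 1 point a subclone and dashed lines at 1 in either direction. Most points lie left of 0, Fgf21 reaches -2.01 in subclone 4, and the 4 members left of -1 in subclone 4 are Fgf21, Mthfd2, Atf3 and Psph.

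Of the 19 other ATF4 targets, Vegfa passed the 2-fold rule, and was lower in subclones 1, 2, 3 and 5, with log2 differences of -1.01, -1.19, -1.14 and -1.16 (limma adjusted p from 5.19e-05 to 0.000555). The exchange factor gene Eif2b2 was lower in subclone 3, at -1.02, and in subclone 5, at -1.20. No gene of the synthetase, folate or ER chaperone lists passed in any subclone. The ER chaperone medians were -0.14 to -0.32.

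Differences among the subclones rest on libraries outside the contrast of WT5 and polyclonal cells. The members were chosen with earlier results of these data known, so independence from that choice is not established. An F test by limma over the 20 subclone libraries and 14031 genes called 2 of 34 members by the 2-fold rule, beside 5.4% of genes. With an adjusted p below 0.01 alone 18 of 34 were called, beside 17.8% of genes, and 24 had an unadjusted p below 0.05, beside 37.2%. An unequal-variance test called 11 by p alone, beside 10.1% of genes. The median range of subclone means was 0.38 on the log2 scale for members and 0.29 for all genes. The members called by the 2-fold rule were Cth and Gdf15.

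Cth was at 4.14, 3.39, 4.5 and 4.29 TPM in subclone 5, at 3.46, 2.79, 2.96 and 3.1 TPM in subclone 3 and at 1.64, 1.32, 1.78 and 1.81 TPM in subclone 2. The lowest library of subclone 5 lay just under the highest of subclone 3, and 2 libraries of subclone 5 lay within the polyclonal range. In subclone 1 it was at 2.36, 2.46, 2.17 and 1.97 TPM and in subclone 4 at 1.77, 1.91, 2.13 and 2.36 TPM, which overlap each other. The means spanned 2.5-fold from subclone 2 to subclone 5 (limma F test, adjusted p = 1.21e-06).

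Gdf15 was at 345, 315, 344 and 328 TPM in subclone 4, at 277, 311, 263 and 274 TPM in subclone 1 and at 193, 275.5, 237 and 235 TPM in subclone 5. Subclone 4 stood above all other subclones and overlapped WT5. In subclone 2 it was at 187, 199.8, 168 and 159 TPM and in subclone 3 at 144, 139, 133 and 202 TPM. The libraries of these last 2 overlap each other, and the means spanned 2.19-fold from subclone 3 to subclone 4 (limma F test, adjusted p = 7.08e-06). Fgf21 had a range of 2.1-fold, but with its spread between libraries it did not pass (limma F test, adjusted p = 0.0394).

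Each subclone was then set against the mean of the other 4, at a limma adjusted p below 0.01 with no limit on the size, a comparison added after the data were seen. Subclones 4 and 5 held 24 of the 33 member calls, 72.7%, and 69.5% of the 4644 calls over all genes. In subclone 4, 6 members were higher, beside 7.22% of genes, and 4 were lower, beside 5.4%. Higher were Gdf15, by 0.70 ± 0.10 on the log2 scale (SE), Cebpb, by 0.39 ± 0.08, the synthetase genes Wars, by 0.37 ± 0.06, and Gars, by 0.32 ± 0.05, Trib3, by 0.28 ± 0.05, and Atf4, by 0.17 ± 0.04. Lower were Mthfd2, at -0.58 ± 0.06, Asns, at -0.54 ± 0.05, Pycr1, at -0.48 ± 0.08, and Nupr1, at -0.36 ± 0.05. Of the 7 amino acid synthesis genes, Asns, Pycr1 and Aldh18a1 had their lowest subclone mean in subclone 4 and Phgdh its highest, and Aldh18a1 and Phgdh were not called there.

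Of these 10 members, Cebpb and Trib3 overlapped other subclones and the other 8 did not. They were picked by their calls on this same comparison, which favours separation, and the share of all genes without overlap was not counted. Asns was at 77.0, 79.4, 81.5 and 81.3 TPM in subclone 4 and at 122, 133, 138 and 147 TPM in subclone 5, and Mthfd2 at 55.1, 60.6, 58.8 and 55.1 TPM in subclone 4 and 83.8, 105.5, 105 and 112 TPM in subclone 5. Nupr1 was at 182, 188, 184.5 and 179 TPM in subclone 4 and 246, 265.5, 269.7 and 278 TPM in subclone 5. For Asns, Mthfd2 and Nupr1 no subclone 4 library overlaps another subclone. Wars was at 71.95, 75.4, 73.8 and 72.6 TPM in subclone 4, close to WT5, and at 41.5, 49.3, 49.35 and 52.0 TPM in subclone 5, where 3 of 4 libraries lay within the polyclonal range. Atf4 was at 477, 474.5, 493 and 455 TPM in subclone 4, the lowest of which was barely above the highest library of subclone 1, 454.7.

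In subclone 5, 11 members were higher, beside 3.32% of genes, and 3 were lower, beside 7.06%. Of the 7 amino acid synthesis genes 5 were higher, namely Cth, by 0.90 ± 0.09 (SE), Pycr1, by 0.43 ± 0.08, Asns, by 0.40 ± 0.05, Psph, by 0.34 ± 0.06, and Psat1, by 0.24 ± 0.05. Mthfd2 was higher by 0.44 ± 0.06, and Chac1, Nupr1, Stc2, Ppp1r15a and Trib3 were higher by 0.32, 0.30, 0.29, 0.27 and 0.23. Wars was lower, at -0.41 ± 0.06, Ddit4 at -0.40 ± 0.04 and Atf5 at -0.27 ± 0.06. Of all these members only Asns, Ddit4 and Wars were free of overlap with the other subclones, and the rest overlapped them. Centred libraries gave 14 higher and 3 lower, and the share of higher among all genes called moved from 32% to 46.4%. With an unequal-variance test, 0 of the members passed in subclone 5, beside 2.42% of genes, while it gave 9 in subclone 4, beside 12%, with Atf5 and without Atf4 and Pycr1. Without replicate 3 of subclone 5, its calls numbered 9 in place of 14.

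The other subclones had fewer calls. In subclone 3, 0 members were higher, beside 1.32% of genes, and 4 were lower, beside 1.89%, namely Gdf15, at -0.71, Stc2, at -0.43, Ppp1r15a, at -0.36, and Ddit3, at -0.18. The unequal-variance test called Ddit3 and Atf4 there and lost the other 3, and the Ddit3 call was kept in 12 of 28 alternatives. In subclone 2, 0 were higher, beside 1.57%, and 2 were lower, beside 2.05%, namely Cth, at -0.75, and Gdf15, at -0.43. In subclone 1, 1 was higher, beside 2.05%, and 2 were lower, beside 1.23%. Ddit4 was higher there, by 0.50, at 67.3, 71.8, 73.6 and 68.6 TPM, above all other subclones. Trib3 and Cebpg were lower, at -0.26 and -0.25. Both of these calls were lost without replicate 4 of subclone 1, and the Cebpg call was kept in 10 of 28 alternatives. Leaving out replicate 1 or 2 of subclone 1 left 1 call there, and leaving out any 1 of 16 of the 20 libraries left 1 call in subclone 2.

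**Figure D4:**
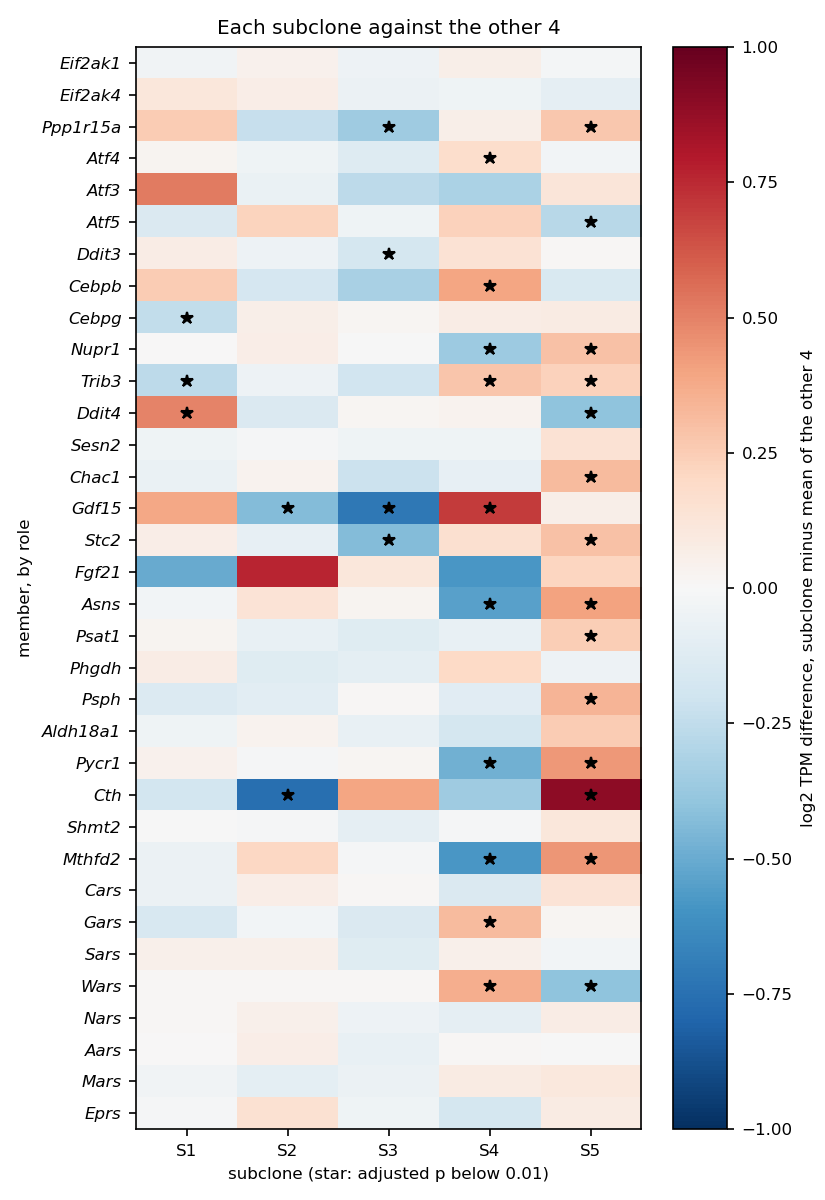
Log2 difference in TPM of 34 members between each subclone and the mean of the other 4, as colours from -1 to 1, with a star where the limma adjusted p is below 0.01. Subclone 4 pairs red Gdf15, Cebpb, Gars and Wars with blue Asns, Pycr1 and Mthfd2, and subclone 5 shows red across most amino acid synthesis genes.

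Of the kinases and eIF2 genes outside the members, Eif2ak3, which encodes the ER stress kinase PERK, passed the 2-fold rule among the subclones, with a range of 1.01 (limma F test, adjusted p = 2.35e-05). No gene of the lists of other ATF4 targets, other synthetases, folate enzymes or ER chaperones did. The kinases among the members, Eif2ak1 and Eif2ak4, had ranges of 0.087 and 0.16 with adjusted p of 0.915 and 0.819.

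Within a subclone, the 4 libraries of most members were close. The SD of log2(TPM) within subclones had a median of 0.11 over 34 members and of 0.16 over all genes. It depends on the level, and 16 of 34 members had an SD above the median of the genes nearest to them in level. It was smallest for Ddit3 and Atf4, at 0.053 and 0.055, and 3.10% and 3.125% of the genes nearest to each in level had a smaller SD. It was largest for Fgf21, at 0.43, and then for Atf3, at 0.26, Eif2ak4, at 0.20, and Gdf15, at 0.18. The spread of Atf3 exceeded that of 97.5% of the genes nearest to it in level, and that of Fgf21, whose level is low, 75.9%.

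The deviations of members from the mean of their subclone moved together across libraries. Over 20 libraries and 561 pairs of members the correlation had a mean of 0.39 and a median of 0.48, beside a mean of 0.17 over all pairs of the 14031 genes. The points share their libraries and the scaling to a fixed total, and the values are a description. The pairs over all genes were not matched to the members in level, so the 2 means are not on equal terms. The correlation was highest for Nars and Eprs, at 0.98, and lowest for Ppp1r15a and Psat1, at -0.88. In subclone 5 replicate 1, 31 of 34 members lay below the mean of the subclone, on average at -0.18, in subclone 2 replicate 2, 30, at -0.09, and in subclone 3 replicate 2, 29, at -0.11. With subclone 3 replicate 2 and subclone 5 replicate 1 left out, the F test still called 2 members by the 2-fold rule, subclone 5 had 12 higher and 3 lower members, and subclone 4 had 9 higher and 7 lower.

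**Figure D5:**
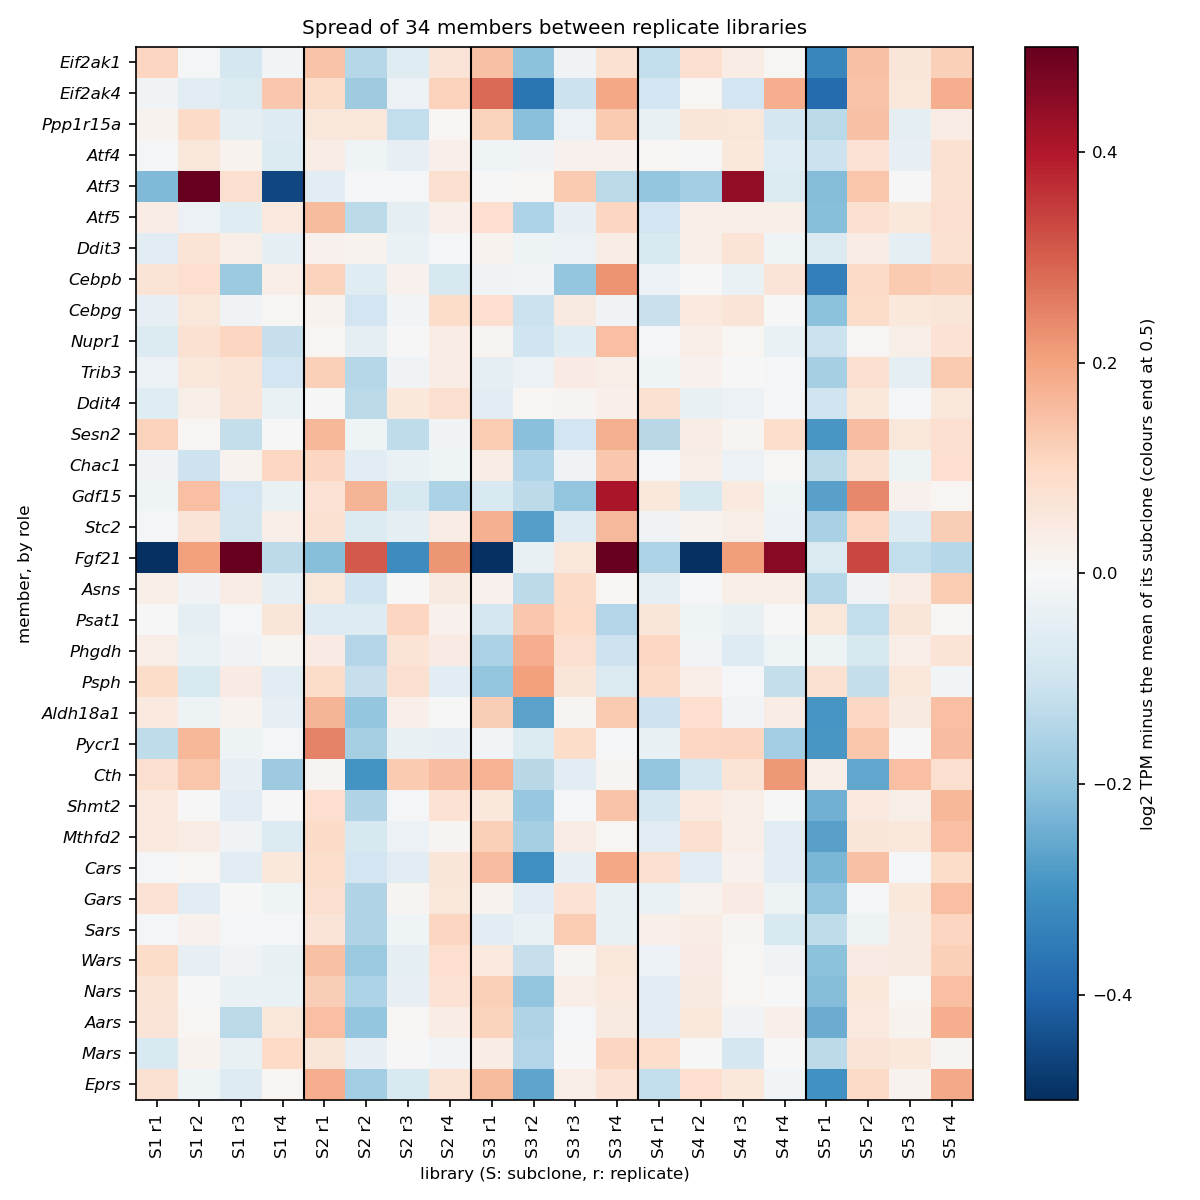
Deviation of log2(TPM) from the mean of the subclone for 34 members (rows) in the 20 subclone libraries (columns, S for subclone and r for replicate), with colours ending at 0.5 in either direction. The columns of subclone 5 replicate 1, subclone 3 replicate 2 and subclone 2 replicate 2 are mostly blue, and the rows of Fgf21 and Atf3 hold the strongest colours.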

How the data were processed

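RNA was sequenced from 28 mIMCD-3 cultures in 7 groups of 4. The deposited TPM values were made by the authors with STAR 2.7.3a on GRCm38, Ensembl release 81, and RSEM 1.3.1, in 2 separate tables, and read depth is not given. The members and lists were chosen with earlier results of these data known.

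Groups were taken from the labels. log2(TPM) of genes above 0 in all libraries of a comparison was tested with limma 3.58.1 in R 4.3.3 and Benjamini-Hochberg adjustment, with no pseudocount. The rule of the study was applied to z-scored log2(TPM), with limma in place of its Welch t-test. Calls needed an adjusted p below 0.01 and, by the 2-fold rule, a log2 difference above 1 in size. Library values were given for members called in a subclone comparison or among the subclones, the 6 with the largest and the 6 with the lowest log2 difference between WT5 and polyclonal cells, Atf4 and the 4 with the largest spread; other members were named by group. Asns and Wars were given by library after their values were seen. The steps were tested on simulated data. Alternatives were pseudocounts of 0.1 and 1, other filters, centring on the median, a replicate block, an unequal-variance test, other thresholds and leaving out each library. Promoter windows came from RefSeq GRCm38.p6.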

Additional observations from a re-analysis of the deposited data

Results flagged for a closer look

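In groups of 4 libraries, 1 library stood far from the others in 6 of 126 groups of the 18 members named, where chance gives about 1 in 20. Atf3 was at 41.53 TPM in subclone 4 replicate 3, and Fgf21 at 2.2 TPM in subclone 5 replicate 2. Atf5 was at 125.82 TPM in subclone 4 replicate 1 and at 87.45 TPM in subclone 5 replicate 1. Gdf15 was at 202.09 TPM in subclone 3 replicate 4, and Trib3 at 58.75 TPM in WT5 replicate 2. The subclone means of Gdf15 and of Cth differed by the F test, over ranges of 1.13 and 1.32 on the log2 scale.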

How the results depend on the processing

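Between WT5 and polyclonal cells the rule of the study gave 4 members, 7 at a mean TPM of at least 1, 2 when a gene needed 1 library above 0 (pseudocount 0.1), 32 without a limit on the difference, beside 65.5% of genes, and 3 to 4 with a library left out. The 2-fold rule gave 18, 35 without the limit. With centring the log2 difference turned to -0.069 for Eif2ak1, -0.22 for Nupr1 and -0.024 for Eprs.

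Against WT5, without a limit on the difference, the rule of the study gave 18, 15, 15, 18 and 9 members in subclones 1 to 5, beside 26.3%, 26%, 19.5%, 37.3% and 21.9% of genes, in place of 0, and the 2-fold rule 19, 19, 19, 19 and 10 in place of 2, 2, 3, 4 and 2. The 2-fold rule gave 1 in subclones 1 and 3 with the unequal-variance test, 1 in subclone 2 with a pseudocount of 1, 1 in subclones 2 and 4 with centring, and 1 in subclone 3 with genes above 0 in any library. With a library left out it gave 1 to 2, 2, 1 to 2, 2 to 4 and 2. By p alone, members lower numbered 11, 9 and 4 in subclones 2, 3 and 5 with the unequal-variance test, and 17 to 19, 11 to 22, 13 to 18, 17 to 18 and 7 to 11 with a library left out.

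Among the subclones, the 2-fold rule gave 1 with a pseudocount of 1, 18 without the limit and 2 with any library left out. By p alone the unequal-variance test gave 11 in place of 18, and leaving out a library 15 to 19. For each subclone against the others, counts of 3, 2, 4, 10 and 14 became 6 and 5 in subclones 1 and 2 with centring, 0, 2 and 0 in subclones 2, 3 and 5 with the unequal-variance test (in subclone 3 Ddit3 and Atf4, of which Atf4 was not among the 4), 6, 4 and 8 in subclones 1, 2 and 3 at an adjusted p below 0.05, 1 in subclone 2 with genes above 0 in any library, and 16 in subclone 4 without subclone 3 replicate 2 and subclone 5 replicate 1. With a library left out they were 1 to 3, 1 to 3, 3 to 7 (7 without subclone 5 replicate 1), 9 to 12 and 9 to 14 (9 without subclone 5 replicate 3).

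Replicate numbers did not pair the libraries, since in 0 of 21 pairs of groups all 4 correlations exceeded 0.1. With the replicate block the 2-fold rule gave 1 in subclones 1 and 3, p alone gave 11, 6, 5 and 5 lower members in subclones 1, 2, 3 and 5, and 1 member was called in each of subclones 1 and 2 against the others. The cause of these changes was not tested. Depth is unknown and limits low members such as Fgf21 and Aldh1l2, and Stc2 in polyclonal cells, in a way that cannot be stated.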
